A study of Mus musculus with 12 samples.

Results

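The BCL2 family genes of apoptosis were examined in ATAC-seq data of mouse hematopoietic stem cells (HSCs), in which a transposase marks open chromatin. The family was represented by 10 genes: Bcl2, Bcl2l1, Mcl1, Bcl2l11, Bax, Bak1, Bbc3, Pmaip1, Bid and Bmf. A region was a merged window of 250 bp on each side of peak summits with a score of 3 or more, and the regions of these genes were those lying entirely within a gene body or 10 kb on each side of it (GENCODE, mm10). There were 55 such regions of 71006 in all, and 1 further region that crossed the edge of a locus was left out. Of the 55 regions, 37 were called in enough libraries to be tested, among 36302 tested regions.

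The 12 libraries formed 4 groups of 3, namely C57BL/6 mice, WT or Mlkl-/-, that were either 3 or 18 months old. The product of Mlkl ruptures the plasma membrane in necroptosis, a regulated form of cell death distinct from apoptosis. HSCs (Lin-, cKit+, Sca1+, Flk2-, CD48-, CD150+) were sorted from bone marrow, and a library was made from the pooled cells of several animals, of which young pools contained more. All HSC replicates were handled on 1 day, and no sex was labelled. The p-values therefore measure the spread between pooled libraries and not between single mice. The design asks whether age or loss of Mlkl alters the accessible chromatin of HSCs, which is described here for the machinery of mitochondrial apoptosis.

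In healthy cells, the anti-apoptotic proteins BCL2, BCL-XL (from Bcl2l1) and MCL1 hold the effectors BAX and BAK1 in check at the outer mitochondrial membrane. BH3-only proteins such as BIM (from Bcl2l11), PUMA (Bbc3), NOXA (Pmaip1), BID and BMF sense stress, bind the anti-apoptotic proteins or the effectors and tip the balance towards pores in that membrane, release of cytochrome c and caspase activation. HSCs are known to depend on MCL1 for survival, and enforced BCL2 is known to enlarge the HSC pool.

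The lists held peak summits with −log10 q-values and no read counts, so depth was unknown and each list was read through ranks. The number of catalogue regions called per list was between 28428 and 46823 in the 6 young libraries and between 38931 and 48959 in the 6 aged libraries, and so list length moved with age. An unexplained tag in the file names was lacking for 3 libraries (Young Mlkl-/- 2, Aged WT 3 and Aged Mlkl-/- 1). Rank 1 is the region of highest score in a library's own list. For the tests each list was cut to its best 28428 regions, and ranks were turned into normal scores, a scale on which regions without a call were given −0.52. A difference in normal score is a difference in relative rank, not in accessibility itself. The HSC label was checked by called regions within 1 kb of marker gene starts: of 10 HSC genes, 4 (Kit, Hlf, Mecom, Meis1) were called in all 12 lists and 1 (Slamf1, which encodes CD150) in 0. Of the other lineages, 3 of 4 T cell genes, 3 of 4 B cell genes and 4 of 4 myeloid genes were called in 0 lists, whereas the erythroid genes Klf1 and Epor and the B cell gene Ebf1 were called in all 12. A region near the Mlkl start was called in all 3 lists of each group, Mlkl-/- included. An open start does not check a deletion.

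The windows around the best summits of 4 regions are shown because in lists of equal length they passed the test of age or, in Mlkl-/- mice, were called in every list of one age and in no list of the other. Each window holds 201 bases of the plus strand of GRCm38 (mm10), centred on the summit. The label intronic refers to the summit, and a window may reach into an exon. Capitals mark matches, on either strand, to the ETS word AGGAAGT, the RUNX word TGTGGTT, the AP-1 word TGANTCA and the p53 element named below.
Bcl2 distal intronic region, chr1:106549169-106549369: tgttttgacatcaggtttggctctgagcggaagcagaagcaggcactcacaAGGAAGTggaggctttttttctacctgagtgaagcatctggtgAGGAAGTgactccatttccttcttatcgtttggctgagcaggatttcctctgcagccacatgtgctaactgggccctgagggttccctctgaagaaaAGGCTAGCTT
Bcl2 second distal intronic region, chr1:106555581-106555781: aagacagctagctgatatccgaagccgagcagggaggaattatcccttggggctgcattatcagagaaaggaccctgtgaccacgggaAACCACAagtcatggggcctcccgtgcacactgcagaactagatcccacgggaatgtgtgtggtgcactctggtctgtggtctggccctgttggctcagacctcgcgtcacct
Mcl1 intronic region, chr3:95659445-95659645: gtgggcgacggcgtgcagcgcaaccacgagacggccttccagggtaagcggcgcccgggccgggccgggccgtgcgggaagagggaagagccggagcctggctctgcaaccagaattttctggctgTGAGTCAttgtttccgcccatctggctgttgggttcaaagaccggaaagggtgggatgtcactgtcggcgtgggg
Bmf intronic region, chr2:118544527-118544727: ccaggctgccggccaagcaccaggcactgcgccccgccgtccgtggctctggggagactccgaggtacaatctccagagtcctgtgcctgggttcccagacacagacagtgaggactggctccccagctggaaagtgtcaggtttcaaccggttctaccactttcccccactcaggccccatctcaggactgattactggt
The distal Bcl2 window held a pair of ETS matches, with middles 46 and 3 bases before the summit, and a p53 element 95 bases after it. The second held a RUNX match on the minus strand 9 bases before the summit, the Mcl1 window an AP-1 match 29 bases after it, and the Bmf window none of the 8 motifs searched.

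For every region, both strands of the 201 bases around its best summit were scanned for motif words. The FOXO word TGTTTAC was found in 7 of 55 BCL2 family regions (12.7%) and in 2.77% of all regions. These 7 lay at 4 genes, Bmf, Bcl2l11, Bbc3 and Mcl1, of which Bcl2l11 and Bbc3 are textbook targets of FOXO3. Rarely called in deposited lists, and not tested, were the Mcl1 region (1 of 12) and the Bmf intronic region at 13.5 kb (2 of 12). The same held for the Bmf upstream region at 8.31 kb (4 of 12) and the Bcl2l11 region, 31.1 kb from the start (5 of 12). The share counts both upstream Bmf regions, which lie in a near-identical copy as given below. AP-1 words were found in 12 of 55 (21.8%, against 10.2% of all regions), ETS words in 7 (12.7% against 16.1%), RUNX words in 5 (9.09% against 10.3%), the GATA word AGATAA in 3 (5.45% against 9.28%), the E-box CACGTG in 2 (3.64% against 4.73%) and the IRF word (GAAA repeated after any 2 bases) in 1 (1.82% against 3.73%). The p53 element, a single decamer of the p53 consensus, was found in 5 (9.09% against 6.31%). These shares are descriptions, since a match is not a bound site and overlapping words were counted for each motif. None of the 12 regions with an AP-1 match was among the 10 that held a gene start. The FOXO matches are printed with 15 bases on each side (plus strand, GRCm38, the word or its reverse complement in capitals), since this word had the highest ratio of its share to that in the catalogue. The Bbc3 start region among them holds a start inside the gene, not the gene's first base. Mean GC content of the same windows was 68.4% in the 10 start regions, 54.2% in the other BCL2 family regions and 53.2% in the catalogue.
Bmf downstream region, chr2:118520146-118520182: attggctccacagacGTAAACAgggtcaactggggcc
Bmf intronic region at 13.5 kb, chr2:118534122-118534158: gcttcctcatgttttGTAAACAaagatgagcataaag
Bmf upstream region at 5.15 kb, chr2:118554813-118554849: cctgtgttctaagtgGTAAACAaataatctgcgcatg
Bmf upstream region at 8.31 kb, chr2:118557947-118557983: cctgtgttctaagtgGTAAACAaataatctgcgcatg
Bcl2l11 intronic region, chr2:128157180-128157216: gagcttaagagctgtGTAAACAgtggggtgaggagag
Bbc3 start region, chr7:16310079-16310115: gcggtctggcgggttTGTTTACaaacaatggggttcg
Mcl1 downstream region, chr3:95668793-95668829: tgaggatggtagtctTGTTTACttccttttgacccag
Both upstream Bmf regions carry the same letters. They lie 3.13 kb apart in a near-identical copy, with 99.8% identity over 400 aligned bases, so that reads of either copy may have been placed in the other and their values are uncertain.

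All 10 genes had an annotated start that was open in HSCs of every group. It lay in a region that was called in all 12 deposited lists, and 8 of the 10 were also called in all 12 lists of equal length. For Bbc3 this was a start inside the gene. Its region (chr7:16309217-16310508) begins downstream of the gene's first base (chr7:16308393), which no region held. For 8 of the 10 genes the start region was the best-ranked region of the locus. The exceptions were Bax, whose best-ranked region held the start of the neighbouring ferritin gene Ftl1, and Bbc3, whose best-ranked region lay downstream within the gene Sae1.

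**Figure D1:**
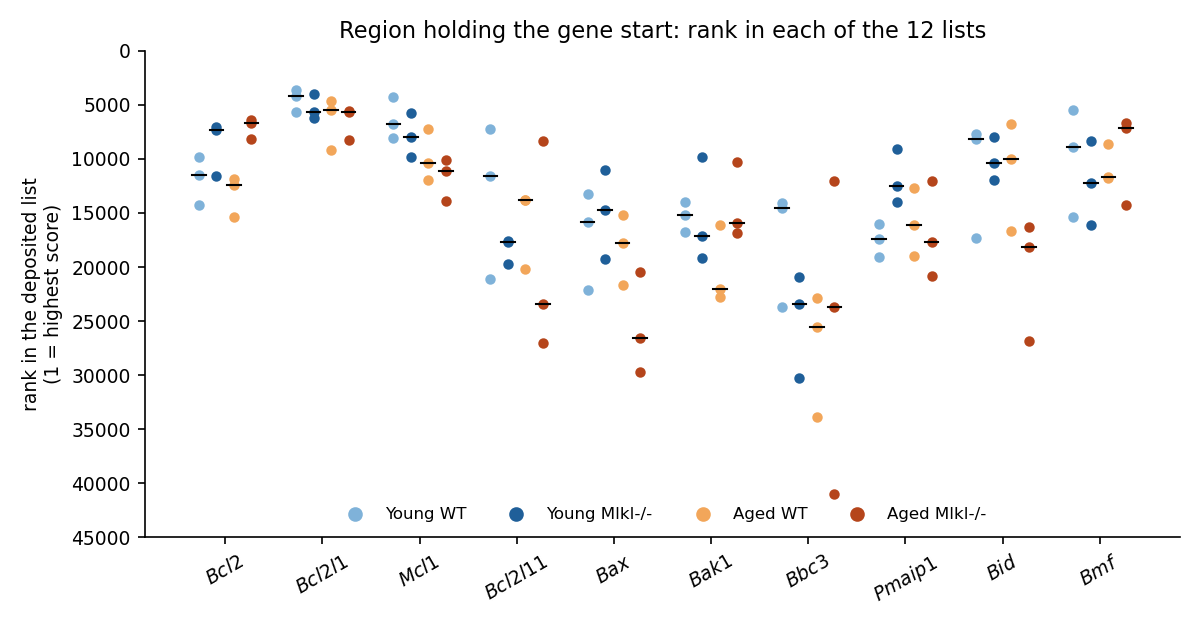
Rank of the region that holds an annotated start of each gene, for each of the 12 libraries (points) with the group median (bar). For Bbc3 this is a start inside the gene. The vertical axis is the rank in the deposited list, with rank 1 at the top. Bcl2l1 lies highest, between ranks 3624 and 9194, and Bbc3 lowest, between 12001 and 40994.

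Among the anti-apoptotic genes, the Bcl2l1 start (chr2:152830369-152832034) had the best median rank, 5598, with a range of 3624 to 9194 over the 12 libraries. The Mcl1 start (chr3:95658357-95659101) followed with a median of 8977 (4287 to 13904), and the Bcl2 start (chr1:106713625-106715010) with 10643 (6430 to 15417). The ranges of these 3 genes overlapped. The effector starts ranked lower, Bak1 (chr17:27028211-27029018) at a median of 16435 and Bax (chr7:45466246-45467275) at 18516. The summit of the Bak1 region also lies 618 bp from the Ggnbp1 start, so its rank may not belong to Bak1 alone. Among BH3-only genes, the Bmf start (chr2:118549453-118550049) had a median rank of 10260 and the Bid start (chr6:120916446-120917630) 11160. The Bcl2l11 start (chr2:128125508-128126268) had 17670 and the Bbc3 region (chr7:16309217-16310508) 23560. For Pmaip1 the start region (chr18:66458169-66458888) had a median rank of 16058. Order of rank between regions is not an order of accessibility, since scores also depend on peak width and local background.

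Age changed the rank of none of the 10 start regions past the threshold, which was a Benjamini-Hochberg adjusted p under 0.01 over all tested regions in limma. The changes, aged minus young over both genotypes, ran from −0.37 (Bax) to 0.05 (Bmf), with 2 higher and 8 lower. Of the 10, 1 had an unadjusted p under 0.05. Among all 11347 tested regions that held a protein-coding start, 0.423% passed, 10.7% had an unadjusted p under 0.05, 58.4% were lower and the median change was −0.04, beside −0.12 for the 10 starts. The Mcl1 start had the lowest p of them at a change of −0.26 ± 0.12 (SE, limma adjusted p = 0.215). Its ranks in WT libraries were 6772, 4287 and 8107 at 3 months and 11924, 7241 and 10416 at 18 months. In Mlkl-/- libraries they were 7966, 9847 and 5800 at 3 months and 13904, 11161 and 10132 at 18 months. All 6 aged ranks but Aged WT 2 lay beyond all young ranks. The Bax start ranked 13273, 15819 and 22131 in young and 21620, 15171 and 17763 in aged WT mice. In Mlkl-/- mice it ranked 19269, 10992 and 14689 in young and 29706, 26551 and 20437 in aged libraries. The young and aged Mlkl-/- libraries did not overlap at Bax, and the WT libraries did. In lists of equal length 11 of the 37 regions were without overlap by age in Mlkl-/- mice, in either direction, beside 15.7% of all tested regions, and 6 of 37 in WT mice, beside 17.4%.

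Beyond the starts there were 45 regions, and 16 of these were called in all 12 deposited lists. Together with the starts, 26 of 55 (47.3%) were called in all 12, beside 28.6% of all catalogue regions. By the position of the best summit, 27 of the 55 were intronic, 11 upstream, 11 downstream, 5 in a UTR and 1 in a coding exon. Regions were densest at Mcl1, with 6 regions or 2.46 per 10 kb of locus, and sparsest at Bcl2, with 12 regions or 0.612 per 10 kb. Bcl2l1 had 6, Bcl2l11 5, Bax 4, Bak1 5, Bbc3 4, Pmaip1 2, Bid 3 and Bmf 8. The summits of 3 regions lay within 1 kb of another gene's start and cannot be assigned to either gene. These were 1 at Ftl1 beside Bax and 2 at Ggnbp1 beside Bak1. Those at Ggnbp1 include the Bak1 start region, with its summit 53 bp from the Bak1 start and 618 bp from the Ggnbp1 start.

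In the deposited lists, more BCL2 family regions were called in aged than in young libraries. The difference by age in lists of equal length was smaller than the SD of every group but young WT. Young WT libraries held 33, 33 and 32 of the 55 regions and young Mlkl-/- libraries 34, 41 and 31. Aged WT libraries held 45, 38 and 46 and aged Mlkl-/- libraries 42, 38 and 46. The share of the 55 was 56.4% to 74.5% in young and 69.1% to 83.6% in aged libraries, beside 40.0% to 65.9% and 54.8% to 69.0% of the catalogue. Young Mlkl-/- 2, the young library with the longest list, overlapped the aged range. The aged minus young difference of the means was 8.5 regions. After each list was cut to equal length, the means were 30.7 ± 0.58 and 30.3 ± 2.08 in young and aged WT, and 30.3 ± 1.15 and 29.3 ± 1.53 in young and aged Mlkl-/- libraries (SD, n = 3), a difference of −0.67 by age. Each of these lists held 40.0% of the catalogue and 50.9% to 58.2% of the 55 regions.

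**Figure D2:**
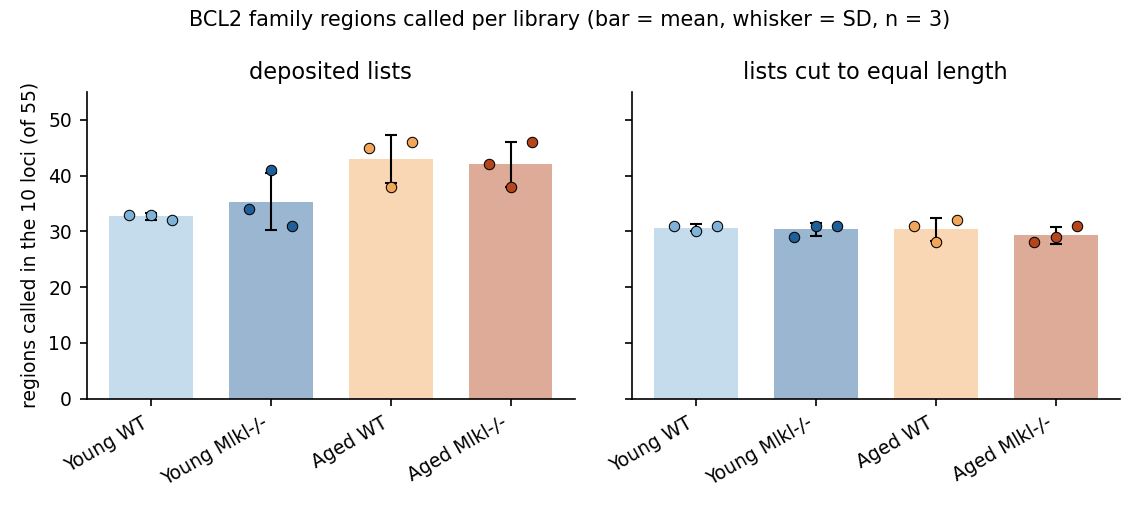
Number of the 55 BCL2 family regions called per library in the deposited lists (left) and after all lists were cut to the same length (right). Points are libraries, bars group means and whiskers the SD (n = 3). The aged groups stand higher on the left (means of 43 and 42 beside 32.7 and 35.3) and level with the young groups on the right.

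With age over both genotypes, 1 of 37 tested BCL2 family regions rose past the threshold and 1 fell. In the background, 1.68% of the 36302 tested regions rose and 0.972% fell, and 1 of 37 in each direction is too few to set the family apart from this. The rise was in the distal intron of Bcl2, and the fall in Mcl1 beside its start. Over all 37 regions, 14 were higher and 23 lower in aged libraries, with a median change of −0.09, beside −0.01 over all tested regions. Further regions reached only an adjusted p under 0.05, namely a second Bcl2 intronic region and the Bmf intronic region, which made 4 of 37 beside 7.49% of all regions. Of the 18 regions not tested, called in few lists, 15 were called in more aged than young deposited lists, 2 in more young and 1 in as many. Of the 34704 untested regions of the catalogue, 64.2% were called in more aged, 24.7% in more young and 11.1% in as many deposited lists, which were longer in aged libraries.

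**Figure D3:**
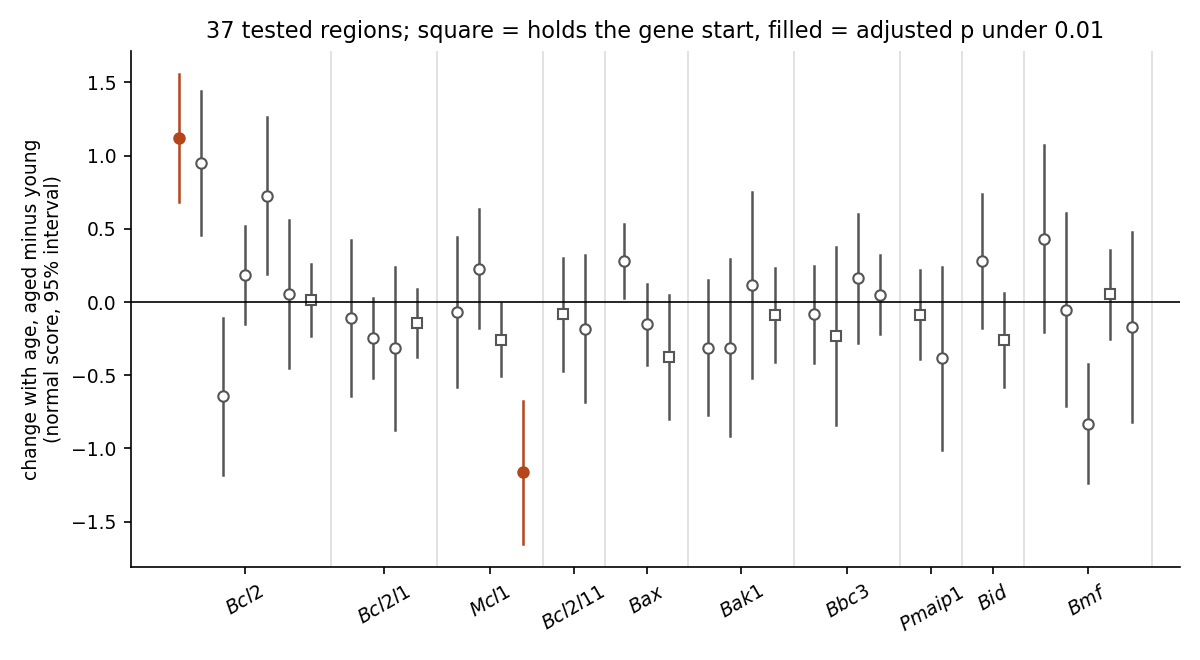
Change in normal score with age (aged minus young over both genotypes, limma estimate with its 95% interval) for the 37 tested regions, grouped by gene and ordered by position. Squares hold a gene start and filled symbols have an adjusted p under 0.01, which are the distal Bcl2 region at 1.12 and the Mcl1 intronic region at −1.16.

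The distal Bcl2 region (chr1:106549013-106549544) was called in HSCs of aged mice in both genotypes and was largely missing from young mice. It lies in an intron of Bcl2, which is transcribed from the minus strand, 164 kb from the start, and also within the annotated transcript D630008O14Rik and 2.64 kb from the start of Mir3473f. The region had no summit with a score of 3 or more in young WT libraries. In young Mlkl-/- libraries it was called in Young Mlkl-/- 2 alone, at rank 39565. At 18 months it ranked 18738, 22624 and 18349 in WT and 27073, 17486 and 14252 in Mlkl-/- libraries. The groups did not overlap, and in lists of equal length it was called in 6 of 6 aged and 0 of 6 young libraries. Of all tested regions, 2.1% did not overlap in this direction and 1.6% in the other, beside 1 and 0 of the 37. Of the whole catalogue, 0.338% were called in every aged and no young list of equal length and 0.182% the reverse, beside 1 and 0 of the 55.

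Its change with age was 1.12 ± 0.21 (SE, limma adjusted p = 0.0029), and it was 1.11 ± 0.29 in WT and 1.13 ± 0.29 in Mlkl-/- mice (limma adjusted p = 0.057 in each). The difference between the genotypes' age changes was 0.03, with a 95% interval from −0.84 to 0.90. The 6 young values were all at the floor of the scale with no spread, and the error rests on the spread pooled by limma. The region entered the tested set through its aged calls alone, so its direction was fixed by that filter and the p-value is not independent of it. With every region called in at least 1 list tested, the limma adjusted p was 0.0092. This fit used the same values, and aged calls alone still brought the region in, so that limit remains. With list length as a covariate the change was 1.11 with an adjusted p of 0.041, so the call was lost. It was also lost among the 9 libraries with the file-name tag, where fewer samples gave a change of 1.18 (adjusted p = 0.016), and with summits of score 5 or more, at 0.88 (adjusted p = 0.029), and it was kept when any single library was left out (adjusted p up to 0.0089).

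A second region of the same intron, 157 kb from the start (chr1:106555335-106555961), had a similar pattern but did not pass. It was called in Young Mlkl-/- 2 alone among young libraries (rank 39973), and among aged libraries it ranked 21172, 30522 and 18746 for WT and 22242, 18130 and 15462 for Mlkl-/-. Every aged rank was better than the young one, and in lists of equal length it was called in 5 of 6 aged and 0 of 6 young libraries. The change was 0.95 ± 0.23 (limma adjusted p = 0.0197). The aged library without a call in its list of equal length, Aged WT 2, decided this. Without that library the change was 1.14 with an adjusted p of 0.0039. All young values were at the floor of the scale, and aged calls alone brought the region into the tested set. Its p-values are therefore not independent of that filter. When the filter was lowered to 1 list, the limma adjusted p was 0.039. The values were the same and aged calls alone still brought the region in, so that limit remains.

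A further intronic region of Bcl2 (chr1:106629758-106630363), 83.1 kb from the start, was called in 6 of 6 aged and 0 of 6 young deposited lists. Its ranks were low, 41924, 31853 and 21524 for aged WT and 26990, 35476 and 34449 for aged Mlkl-/-. In lists of equal length 2 aged calls were left, so it was not tested. In the deposited lists 0.841% of the catalogue showed this pattern and 0.0549% the reverse, beside 1 and 0 of the 55, and the aged lists were also longer.

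The other 5 tested Bcl2 regions did not pass. A region 24.8 kb from the start (chr1:106687279-106688699) was called in 6 of 6 aged and 2 of 6 young deposited lists, with a change of 0.73 ± 0.25 (limma adjusted p = 0.093). A region 85.8 kb from the start (chr1:106627036-106627722) had a change of −0.64 ± 0.25 (limma adjusted p = 0.136). The Bcl2 start itself stayed within its spread by age, at 0.02 ± 0.12, while its genotype difference was 0.30 ± 0.12 higher in Mlkl-/- mice (limma adjusted p = 0.754). At 3 months its ranks were 11444, 14238 and 9842 in WT and 11567, 7047 and 7307 in Mlkl-/- libraries. At 18 months they were 15417, 11837 and 12370 in WT and 6430, 8137 and 6657 in Mlkl-/- libraries. The aged genotypes did not overlap at this start, and the young ones did. Of the 37 regions, 6 were without overlap between the genotypes at 18 months and 5 at 3 months in lists of equal length, beside 8.5% and 8.17% of all tested regions.

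For Mcl1, which encodes a short-lived guardian that HSCs need, the intronic region fell with age. This region (chr3:95659295-95659855) has its summit 688 bp downstream of the Mcl1 start, inside the gene, and is separate from the region that holds the start. It ranked 13117, 11605 and 9745 in young WT and 14628, 25883 and 16772 in young Mlkl-/- libraries. In aged WT libraries it ranked 36590 and 21948 and was not called in Aged WT 3. None of the 3 aged Mlkl-/- libraries had a call. The value of Aged WT 2 lay within the young range, and all other aged values were lower than every young value.

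The change was −1.16 ± 0.23 (limma adjusted p = 0.0053), with −1.17 ± 0.33 in WT and −1.15 ± 0.33 in Mlkl-/- mice (limma adjusted p = 0.070 and 0.082). Young calls brought this region into the tested set, since Aged WT 2 was the only aged library above the floor of the scale. These p-values are therefore not independent of that filter. When the filter was lowered to 1 list, the limma adjusted p over both genotypes was 0.0072. This fit used the same values and is not separate support. The call was lost when any of 10 of the 12 libraries was left out (adjusted p up to 0.017) and kept without Young Mlkl-/- 2 or Aged WT 2. It was also lost with a replicate block (adjusted p = 0.012), with percentiles of ranks (adjusted p = 0.0105) and with scores of at least 5 (adjusted p = 0.034). With list length as a covariate the change was −0.92 (adjusted p = 0.106), and among the 9 libraries with the file-name tag it was −1.15 (adjusted p = 0.024). A summit list does not tell whether signal there was absent or was merged into the peak of the neighbouring start, which was called in every library. The other tested Mcl1 regions, at 7.99 kb (chr3:95650349-95651219) and 4.95 kb (chr3:95653537-95654096) before the start, had changes of −0.07 and 0.23.

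**Figure D4:**
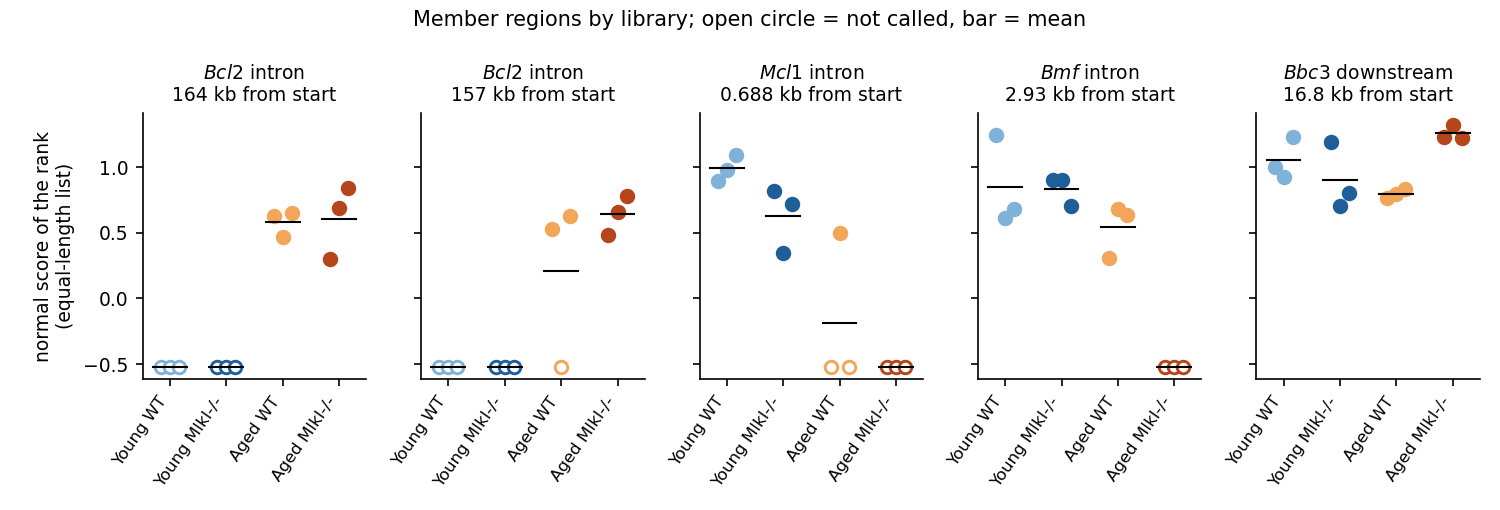
Normal score of the rank in lists of equal length (vertical axis) for 5 regions, with 1 point per library in 4 groups, bars at the group means and open circles where the region was not called. Both Bcl2 regions are called in aged libraries only, the Mcl1 region mostly in young ones, the Bmf region in all groups but aged Mlkl-/-, and the Bbc3 region has aged means on opposite sides of the young means in the genotypes.

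The effectors did not pass. At Bak1, the 4 tested regions had changes of −0.31 to 0.12. At Bax, the region that holds the Ftl1 start (chr7:45459619-45460170) had a change of 0.28 ± 0.12 (limma adjusted p = 0.175), and its summit lies 7 bp from the Ftl1 start. The neighbouring region 1.17 kb from the Ftl1 start (chr7:45460777-45461486) had a change of −0.15. In the Mlkl-/- background the age change of the Bax start was −0.70 ± 0.29 (limma adjusted p = 0.266).

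Among BH3-only genes, Bmf held the region with the largest genotype difference at 18 months among the 37, and this difference did not pass. The region (chr2:118544141-118544925) lies in an intron 2.93 kb from the Bmf start. It ranked 7526, 19247 and 17536 in young and 27004, 17531 and 18598 in aged WT libraries, and 12985, 13074 and 17157 in young Mlkl-/- libraries. In aged Mlkl-/- libraries it ranked 30158, 31450 and 30778, below every other library, and it was called in 0 of 3 of their lists of equal length. The change with age was −1.36 ± 0.27 in Mlkl-/- mice (limma adjusted p = 0.023) and −0.31 ± 0.27 in WT mice (limma adjusted p = 0.696). Over both genotypes it was −0.83 ± 0.19 (limma adjusted p = 0.014). In lists of unequal length, where the aged Mlkl-/- ranks beyond 28428 count as calls, the change was −0.67 in Mlkl-/- mice (adjusted p = 0.138) and −0.49 over both genotypes (adjusted p = 0.062). The genotype difference at 18 months was −1.07 ± 0.27 (limma adjusted p = 0.536), and the difference between the age changes was −1.05 ± 0.39 (limma adjusted p = 0.963), so a difference between genotypes was not shown.

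All-or-none calls within a genotype, in lists of equal length, were as follows. In WT mice, 1 of 55 regions was called in every aged and no young list (the distal Bcl2 region; 1.06% of the catalogue) and 0 the reverse (1.16%). In Mlkl-/- mice, 2 regions (both distal Bcl2 regions; 1.26% of the catalogue) were called in every aged and no young list and 2 regions (Mcl1 and Bmf; 0.821%) the reverse.

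The further Bmf regions did not pass. The downstream region with a FOXO match (chr2:118519926-118520619) was called in 6 of 6 aged and 2 of 6 young deposited lists, with a change of 0.43 and an adjusted p of 0.44 in limma. The upstream region at 5.15 kb (chr2:118554394-118555156), part of the copied sequence, had a change of −0.17 over both genotypes, and its age changes differed by 0.90 between them (limma adjusted p = 0.966). The change of the Bmf start was 0.05 ± 0.14.

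At Bbc3, which encodes PUMA, a region 16.8 kb downstream of the start and inside Sae1 (chr7:16326060-16326679) had age changes of opposite sign in the genotypes. It ranked 11247, 12549 and 7737 in young WT and 15815, 15107 and 14363 in aged WT libraries. In Mlkl-/- libraries it ranked 8240, 17045 and 14984 in young and 7770, 6627 and 7895 in aged mice. Young and aged values did not overlap in either genotype. Of all tested regions, 0.24% were without overlap in opposite directions in the genotypes, beside 1 of the 37. The age changes were −0.26 in WT and 0.36 in Mlkl-/- mice, and their difference of 0.61 ± 0.25 did not pass (limma adjusted p = 0.963). The other Bbc3 regions had differences between the age changes of −0.23 to 0.74.

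The regions of the remaining BH3-only genes did not pass. Bcl2l11 had 2 tested regions, with changes of −0.08 at the start and −0.18 in the intron 1.45 kb from it (chr2:128127119-128127970). A region downstream of Bcl2l11 (chr2:128166628-128167283) was called in deposited lists of Aged WT 1, 2 and 3 at ranks 34796, 36064 and 40972 and in Young Mlkl-/- 2 at rank 38190, and it was too rarely called in lists of equal length to be tested. Bid had changes of −0.26 at the start and 0.28 in an intron 14.7 kb from it (chr6:120901890-120902476). Pmaip1 had changes of −0.09 at the start and −0.38 at a region 12.2 kb downstream (chr18:66470455-66471348), which was called in 5 of 6 aged and 6 of 6 young deposited lists. For Bcl2l1, the 4 tested regions had changes of −0.32 to −0.11. The best-ranked of them outside the start lay in an intron 41.0 kb from it (chr2:152788689-152790004) and was called in all 12 lists of equal length, with ranks of 4768 to 17711. The region downstream of Bcl2l1 (chr2:152780369-152780903) had a call in 2 of 6 young and 5 of 6 aged deposited lists, and its genotype difference over both ages was −0.53 ± 0.25 (limma adjusted p = 0.754).

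Within each genotype alone, 0 of 37 regions passed by age in limma. In WT mice 0.127% of all tested regions passed and in Mlkl-/- mice 0.168%, and unadjusted p-values under 0.05 were found for 4 and 8 of the 37, beside 14.6% and 14.3% of all regions.

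Loss of Mlkl changed no BCL2 family region past the threshold. In limma, 0 of 37 passed for genotype over both ages, at 3 months, at 18 months and for the interaction of age and genotype, and 0% of all tested regions passed in each. Unadjusted p-values under 0.05 were found for 3 of 37 by genotype over both ages (6.2% of all regions), 0 at 3 months (5.36%), 5 at 18 months (5.03%) and 3 for the interaction (4.75%). The lowest adjusted p among them was 0.536, for the Bmf region at 18 months. A Bcl2 intronic region 12.3 kb from the start (chr1:106700620-106701217) was higher in Mlkl-/- than in WT mice at 18 months by 0.99 ± 0.34 (limma adjusted p = 0.781). This region ranked 43228 and 38685 in Aged WT 1 and 3, was not called in Aged WT 2, and ranked 24903, 23897 and 19462 in aged Mlkl-/- libraries, 1 of the 6 regions without overlap given above. The young genotypes overlapped there. The upstream Mcl1 region at 7.99 kb had the largest interaction, 1.21 ± 0.49 (limma adjusted p = 0.963).

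Averaged over the tested regions of each locus, no gene passed. Of 16176 protein-coding genes, 0.915% passed by age and 0% by genotype, beside 0 of 10 in each. By age, Bcl2 was higher by 0.34 ± 0.12 (limma adjusted p = 0.135) and Mcl1 lower by −0.31 ± 0.10 (limma adjusted p = 0.093), and these anti-apoptotic genes had the largest changes of the family, in opposite directions. With 2 kb in place of 10 kb on each side, 2 tested Mcl1 regions were left and the gene passed, at −0.71 ± 0.13 (limma adjusted p = 0.0085). These were the start region and the intronic region given above, with changes of −0.26 and −1.16. The Bcl2 mean over 7 tested regions held the distal regions at 1.12 and 0.95 as well as the region at −0.64. These gene values are therefore not separate from the results of the regions. The change of Bcl2l1 was −0.20. Among the effectors it was −0.08 for Bax and −0.15 for Bak1. Among BH3-only genes the changes were −0.13 for Bcl2l11, −0.03 for Bbc3, −0.23 for Pmaip1, 0.01 for Bid and −0.11 for Bmf. The family had 2 genes higher and 8 lower, with a median of −0.12, and all genes had a median of −0.03. At an unadjusted p under 0.05 there were 2 of 10 genes by age, beside 17.8% of all genes, and 0 of 10 by genotype, beside 5.83%.

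**Figure D5:**
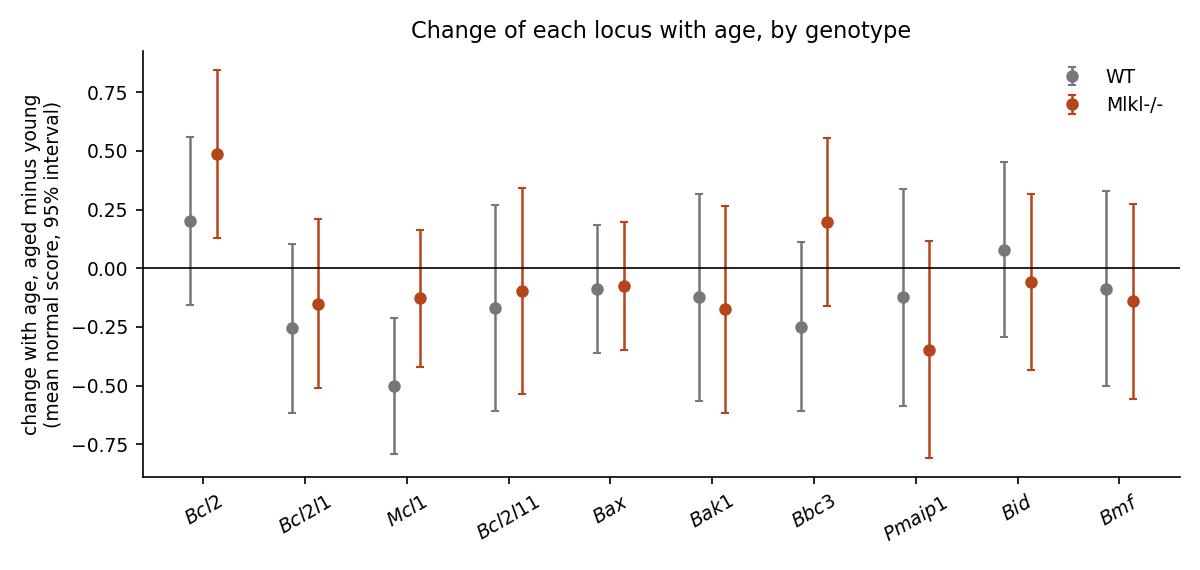
Change of each locus with age (mean normal score of its tested regions, aged minus young, limma estimate with its 95% interval) in WT and Mlkl-/- mice. Bcl2 lies above 0 in both genotypes (0.20 and 0.49) and Mcl1 below 0 in both (−0.50 and −0.13), and the intervals of the genotypes overlap for every gene.

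Genotype differences at the gene level over both ages lay between −0.21 (Bcl2l1, 95% interval −0.46 to 0.05) and 0.17 (Bcl2, 95% interval −0.09 to 0.42). Both intervals included 0.

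The wider apoptosis machinery was read in the same way from a list of 39 genes. Of these, 37 had a tested region, 13 were higher and 24 lower by age, and 0 passed in limma in either direction (median change −0.06, 7 of 37 with an unadjusted p under 0.05). Of all 16176 genes, 43.8% were higher, 0.915% passed and 17.8% had an unadjusted p under 0.05. By role, the BCL2 relatives had 6 higher and 6 lower, the apoptosome and caspases 5 and 3, the inhibitors of apoptosis and their antagonists 1 and 5, the death receptor arm 0 and 5, the mitochondrial genes 1 and 3, and Trp53 and Mdm2 0 and 2. The largest changes were at Bad, a BH3-only relative (−0.65 ± 0.19, limma adjusted p = 0.072), Bcl2a1d, an anti-apoptotic relative (−0.43 ± 0.11, adjusted p = 0.044), Fas, a death receptor (−0.40 ± 0.28), and Htra2, a mitochondrial protease (−0.37 ± 0.12). Bcl2a1d belongs to a family of near-identical copies, so its value is uncertain. By genotype, 15 were higher and 22 lower, and 0 passed (3 with an unadjusted p under 0.05), beside 47.2% higher and 5.83% with such a p among all genes.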

How the data were processed

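ATAC-seq libraries of sorted HSCs were analysed for 12 pooled samples, 3 in each of 4 groups. Per the labels and the submitters' processing notes, the authors used Bowtie2 2.5.3, MACS2 2.2.7.1, bedtools 2.31.0 and edgeR 3.30.3 with mm10. The deposited files hold 1 summit list per library, each summit with a −log10 q-value as MACS2 writes it, and no read counts, so depth and its precision are unknown. A high score reflects depth as well as accessibility, and list length moves with depth.

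Summits with a score of 3 or more (q of 0.001) were extended by 250 bp on each side and merged. Ranks of regions in lists cut to 28428 regions were turned into normal scores. Regions called in at least 3 of these lists were tested over all 12 libraries with limma 3.58.1 (R 4.3.3, trended variance, 7 contrasts), with Benjamini-Hochberg adjustment over all 36302 regions and a threshold of 0.01. Gene values were means over tested regions of 16176 protein-coding genes (GENCODE, mm10). On simulated data for age over both genotypes (14884 regions, 200 changed), 24 changes of 2-fold in score were recovered, with 0 false calls, and 182 changes of 4-fold, with 4 false calls. The simulated regions were those called in all 12 lists of equal length. The distal Bcl2 and Mcl1 regions that passed were called in 6 and 7 of these lists, and such regions were not simulated. The other steps used Python 3.11.15 with pandas 2.3.3, scipy 1.17.1 and pysam 0.24.0. Regions named were those past the threshold, start and best-ranked regions, the 2 highest and 2 lowest changes of each contrast and regions called in every list of one age and none of the other. Further regions of Bcl2, Bcl2l1, Bcl2l11, Bax, Pmaip1, Bid and Bmf were named after their values were seen, and FOXO matches after their count was. The genes, lists and regions were chosen with earlier results of these data known. Alternatives covered filters, list length, windows, flanks, score scale, library tags, a replicate block and single libraries left out.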

Additional observations from a re-analysis of the deposited data

Results flagged for a closer look

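At the Bbc3 region inside Sae1, the age change was −0.26 in WT and 0.36 in Mlkl-/- mice, without overlap of young and aged libraries in either genotype (0.24% of all tested regions did the same in opposite directions), and the difference of 0.61 did not pass in limma (adjusted p = 0.963). In the loci of the 10 genes, 4 summits with a score of 2 to 3 lay outside every region, 2 at Bcl2, 1 at Mcl1 and 1 at Bbc3. The main comparisons left such summits out, and the alternative with all deposited scores took them in.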

How the results depend on the processing

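The number of BCL2 family regions past the threshold for age over both genotypes, 2 as reported, was 1 with percentiles in place of normal scores, 0 with list length as a covariate, 0 among the 9 libraries with the file-name tag, 0 with scores of at least 5 and 4 at an adjusted p under 0.05, and it ranged from 1 to 3 when single libraries were left out. With a replicate block it was 1. The replicate numbers showed no pairing by correlations of deviations between libraries. These ran from −0.308 to 0.127 for the same number (18 pairs) and from −0.175 to 0.311 for different numbers (36 pairs). The highest joined Young Mlkl-/- 2 and Aged WT 3, which both lack the file-name tag, and a link to the tag or list length was not tested. For age in Mlkl-/- mice, 1 region passed at 0.05, and with 2 kb of flank 1 gene passed by age. The aged minus young difference in regions called per library, −0.67 as reported, was 8.5 in lists of unequal length, 0.833 with a catalogue from equal numbers of summits, and −1.1 to −0.3 when single libraries were left out. The cause of these changes was not tested. For the counts, 227 values kept their side of the threshold or stayed within the limit, 15 were lower, 3 higher and 2 moved. For the distal Bcl2 and the Mcl1 region by age, which passed, 32 alternatives kept the call and 18 lost it. The split was uneven, with 22 kept and 3 lost for the Bcl2 region and 10 kept and 15 lost for the Mcl1 region. For the 3 results that did not pass (the second Bcl2 region by age, and the Bmf region by age over both genotypes and in Mlkl-/- mice), 69 stayed without a call and 6 gained one. None of these changed direction. Depth was unknown. In the simulation of age over both genotypes, on the 14884 regions called in all 12 lists of equal length, 12% of 2-fold changes in score were recovered, and contrasts within a genotype or an age were not simulated.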
